A study of Mus musculus with 12 samples.

Results

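The 36 genes described here encode the glycolytic pathway and other genes of the cell's response to low oxygen, measured by RNA sequencing in 2 mouse tumour cell lines grown with and without decitabine. They were taken by gene symbol from a list of 36, and all 36 were found among 46517 genes in the tables and passed the filter on low counts in every comparison. Of these, 21 are glycolytic members (2 transporters, 16 enzymes and 3 regulators of flux), and 15 are other hypoxia genes, Hif1a among them. Decitabine is a cytidine analogue that is built into DNA and traps DNA methyltransferases there. The groups were B16F10 melanoma cells given 0.1 µM decitabine for 48 h, control B16F10 cells, 4T1 mammary carcinoma cells given 1 µM decitabine for 48 h, and control 4T1 cells, with 3 libraries in each group and 12 in all. Both lines grew in the same kind of medium, in 24-well plates, and dead cells were removed with microbeads before RNA was taken from the live ones. The labels name no treatment for the controls and no change in oxygen, so the comparisons are of drug against no drug and of line against line. The dose changes together with the line, so the effects of line and dose cannot be told apart. The labels do not say whether the libraries of a group came from separate cultures, and p-values then measure only the spread between these libraries, which may be technical.

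Glycolysis turns glucose into pyruvate, and tumour cells often run it fast and reduce the pyruvate to lactate even where oxygen is present. Hif1a is the oxygen-regulated subunit of hypoxia-inducible factor. With oxygen, prolyl hydroxylases of the Egln family mark the Hif1a protein for destruction. When oxygen is low the protein accumulates, pairs with Arnt and binds DNA at letters such as ACGTG. It then raises transcription of most glycolytic enzymes, of glucose and lactate transporters, of mitophagy genes and of secreted factors such as Vegfa. Because Hif1a is controlled mainly through its protein, its RNA level is not a measure of the factor's activity.

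The libraries held 48197936 to 76042600 estimated counts. Levels are given as CPM, counts relative to the library total and scaled over all 12 libraries, and 3 counts in a library correspond to 0.0395 to 0.0622 unscaled CPM. Dnmt1, the maintenance DNA methyltransferase that the drug traps, averaged 181 ± 7.94 CPM in decitabine-treated and 286 ± 10.0 CPM in control B16F10 cells, and 335 ± 11.1 CPM in decitabine-treated and 423 ± 28.6 CPM in control 4T1 cells (SD, n = 3 each). The melanocyte list, 10 genes such as Pmel and Dct, summed to 18200 to 19400 CPM in decitabine-treated and 20000 to 21200 CPM in control B16F10 libraries, and to 18.9 to 21.1 CPM in decitabine-treated and 9.28 to 11.7 CPM in control 4T1 libraries. The list of 12 epithelial and mammary markers, with Epcam and Krt8, summed to 3320 to 3570 CPM in decitabine-treated and 3960 to 4190 CPM in control 4T1 libraries, against at most 5.84 CPM in B16F10. The milk gene Csn2 was at 0 counts in all 4T1 control libraries.

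Replicate 1 of the 4T1 controls stood apart for the genes described here. It was above both other 4T1 controls for 14 of the 15 other hypoxia genes (93.3%) and for 13 of the 21 glycolytic members (61.9%), against 36.3% of all 15523 genes tested. Its median log2 ratio over the other controls was 0.70 for the other hypoxia genes, 0.18 for the glycolytic members and -0.01 for all genes. Only Hif1a, of those 15, was not highest in this library. Some immediate early genes outside the 36 were also highest in it. Fos had 6.42 CPM there, against 0.397 and 0.534 CPM in the other 4T1 controls. Ier2 had 86.2 CPM, against 38.4 and 40.7 CPM, and Btg2 3.02 CPM, against 1.44 and 1.79 CPM. Atf3 (10.5 CPM, against 10.1 and 11.3 CPM) and the heat shock gene Hspb1 (2.21 CPM, against 2.71 and 2.59 CPM) were not highest. What set the library apart was not tested, and the 4T1 values that it moved most are given with and without it.

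Most of the 36 genes were lower with decitabine in both lines. In B16F10 29 fell, 3 rose and 4 did not pass (edgeR's quasi-likelihood test, Benjamini-Hochberg adjusted p under 0.05), where 19.8% of the 14344 genes tested fell and 21.4% rose. In 4T1 28 fell, 4 rose and 4 did not pass, where 36.1% of 15523 genes fell and 39.2% rose. The median log2 fold change over the 36 genes was -0.44 in B16F10 and -0.85 in 4T1, beside 0.00 and 0.03 over all genes. A total of 24 fell in both lines (12.3% of 12946 genes tested in both), Pfkfb3 alone rose in both (11.2% of genes), and Aldoc, Slc16a3 and Vegfa were called in opposite directions (9.62% of genes). In 4T1 all 3 treated libraries lay below all 3 controls for 28 members, as they did for 40.3% of genes, and in B16F10 for 29, as for 24.8% of genes. In 4T1 75.3% of genes were called in either direction. Falls of at least 2-fold were found for 3 members in B16F10, Pdk1, Bnip3 and Ankrd37 (0.809% of genes), and for 17 in 4T1 (5.57% of genes), and Aldoc alone rose as far in B16F10 (8.33% of genes). Without 4T1 control replicate 1 the falls of at least 2-fold in 4T1 numbered 11 (5.68% of genes), since Slc2a1, Pgk1, Kdm3a, Ankrd37, Adm and P4ha1 then fell by less.

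**Figure D1:**
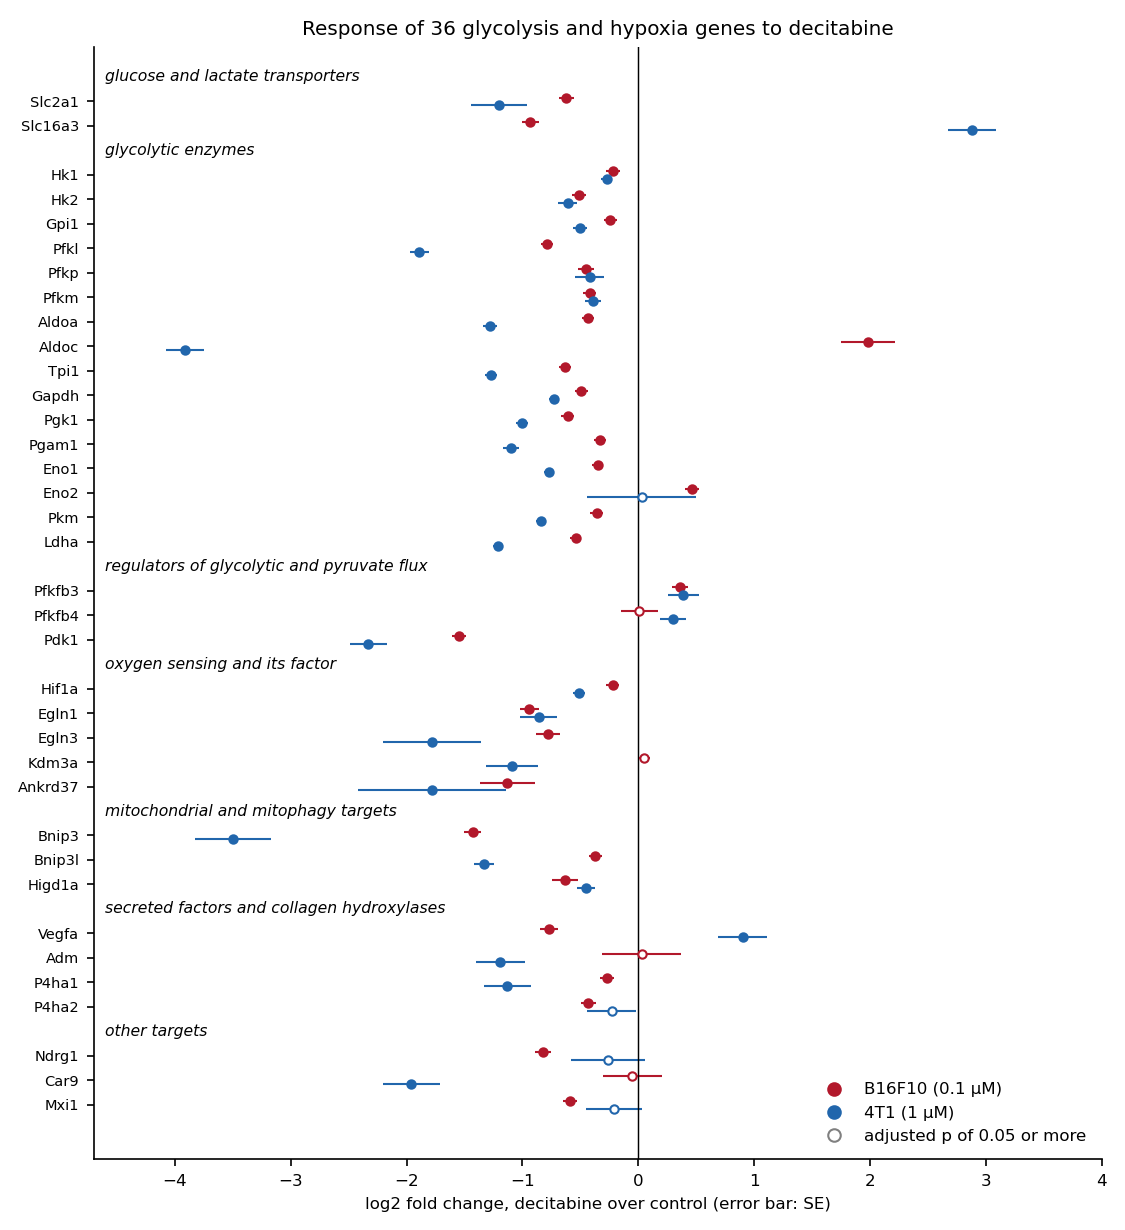
Log2 fold change of each of the 36 genes, decitabine over control, with its standard error, for B16F10 (0.1 µM, red) and 4T1 (1 µM, blue), grouped by role; open circles did not pass an adjusted p of 0.05. Most points lie left of 0 in both lines, and Slc16a3, Aldoc and Vegfa lie on opposite sides in the 2 lines.

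Stretches before a transcription start of 8 of the genes are shown because hypoxia-inducible factor is known to bind ACGTG. Not all lie upstream of the whole gene. By the GENCODE M21 gene coordinates, those of Slc16a3 and Ldha lie within the gene, and those of Car9, Aldoc and Bnip3 overlap its first bases. Each is 250 bases long, ends just before a transcription start of the RefSeq annotation (GRCm38.p6, the mm10 build) and is written along the gene's strand, with ACGTG and its reverse complement CACGT in capitals; where both overlap they read CACGTG, the E-box that Myc also binds. Bnip3 fell most among the other hypoxia genes, Pgk1 and Ldha are enzymes that fell in both lines, Car9 fell in 4T1 and did not pass in B16F10, Slc16a3, Vegfa and Aldoc moved oppositely in the 2 lines, and Pdk1 fell most in B16F10.
Bnip3, chr7:138909507-138909756, minus strand: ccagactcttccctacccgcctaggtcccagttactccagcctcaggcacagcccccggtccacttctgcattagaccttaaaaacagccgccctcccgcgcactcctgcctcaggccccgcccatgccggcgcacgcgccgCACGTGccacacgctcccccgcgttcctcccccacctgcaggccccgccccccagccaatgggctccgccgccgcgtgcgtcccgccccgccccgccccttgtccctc
Ldha, chr7:46845554-46845803, plus strand: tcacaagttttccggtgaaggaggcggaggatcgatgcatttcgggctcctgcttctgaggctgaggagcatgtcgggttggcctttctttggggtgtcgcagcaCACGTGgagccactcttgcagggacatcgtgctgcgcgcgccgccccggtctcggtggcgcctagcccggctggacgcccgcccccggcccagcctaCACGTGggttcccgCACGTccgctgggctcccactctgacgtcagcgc
Pgk1, chrX:106186850-106187099, plus strand: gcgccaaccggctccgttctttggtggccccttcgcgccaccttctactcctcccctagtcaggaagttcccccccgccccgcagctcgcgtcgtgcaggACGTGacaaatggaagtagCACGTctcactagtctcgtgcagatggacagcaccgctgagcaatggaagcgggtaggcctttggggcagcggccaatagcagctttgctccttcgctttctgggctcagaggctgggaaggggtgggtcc
Car9, chr4:43506776-43507025, plus strand: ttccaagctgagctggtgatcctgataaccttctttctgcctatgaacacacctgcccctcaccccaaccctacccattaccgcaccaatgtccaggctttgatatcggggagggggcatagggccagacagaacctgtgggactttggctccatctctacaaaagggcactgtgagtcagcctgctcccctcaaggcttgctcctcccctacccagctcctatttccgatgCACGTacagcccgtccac
Slc16a3, chr11:120948817-120949066, plus strand: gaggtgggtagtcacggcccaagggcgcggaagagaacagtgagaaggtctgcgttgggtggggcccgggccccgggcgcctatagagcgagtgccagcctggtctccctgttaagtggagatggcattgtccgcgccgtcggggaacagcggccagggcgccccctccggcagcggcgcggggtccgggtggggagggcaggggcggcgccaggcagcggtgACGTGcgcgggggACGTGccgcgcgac
Aldoc, chr11:78322823-78323072, plus strand: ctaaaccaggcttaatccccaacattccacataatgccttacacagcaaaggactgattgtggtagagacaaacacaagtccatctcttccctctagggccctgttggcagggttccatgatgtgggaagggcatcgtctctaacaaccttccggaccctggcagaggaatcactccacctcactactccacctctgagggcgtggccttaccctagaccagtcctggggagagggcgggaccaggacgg
Vegfa, chr17:46032378-46032627, minus strand: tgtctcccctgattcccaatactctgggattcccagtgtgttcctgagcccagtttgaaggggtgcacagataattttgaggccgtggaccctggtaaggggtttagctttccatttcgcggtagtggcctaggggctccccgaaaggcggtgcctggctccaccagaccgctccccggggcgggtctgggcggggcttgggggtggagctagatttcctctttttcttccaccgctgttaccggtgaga
Pdk1, chr2:71872974-71873223, plus strand: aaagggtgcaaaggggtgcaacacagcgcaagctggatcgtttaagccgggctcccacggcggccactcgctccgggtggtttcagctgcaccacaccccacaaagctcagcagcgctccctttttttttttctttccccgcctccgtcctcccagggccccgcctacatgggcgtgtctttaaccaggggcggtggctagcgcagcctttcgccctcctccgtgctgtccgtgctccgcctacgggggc

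Bnip3 held the letters at 1 place, as an E-box, Ldha at 3 places of which 2 were E-boxes, Pgk1 and Slc16a3 at 2 places each and Car9 at 1. Vegfa held none in the stretch shown and 1 at a further annotated start that lies within the gene. Pdk1 and Aldoc held none in the stretches shown or at their other annotated starts, and the further start of Ldha held none either. The windows of Pfkl and Tpi1 also lacked the letters. Of the 36 genes 34 had such a window, and 20 of the 34 (58.8%) held ACGTG on either strand in at least 1 window. Among tested genes 24.3% of 11297 did, and 18.5% of all 27025 genes with a window. Per window the shares were 46.2% of 52 member windows and 16.6% of all 32851 windows. The genes were chosen as parts of the hypoxia response, so a larger share among them is no independent result. By class, 10 of 21 glycolytic members (47.6%) and 10 of 13 other hypoxia genes (76.9%) held it. The windows differed in composition too. Taking each gene's window with most CG pairs, the median was 18 pairs for the members, 16 for tested genes and 6 over all genes. Per window it was 14 for member windows and 6 for all windows. A match is a run of letters, not a measured binding site. Only the 250 bases before each start were searched, and whether the letters bear on the changes with decitabine was not tested.

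The 2 transporters moved together in B16F10 and apart in 4T1. Slc2a1, the main glucose importer of most proliferating cells, had 38.9, 42.8 and 42.5 CPM in decitabine-treated B16F10 libraries, against 63.5, 62.9 and 65.0 CPM in controls. All 3 treated libraries lay below all controls (log2 fold change -0.62, SE 0.0618, adjusted p = 2.09e-07). In 4T1 it had 35.6, 37.6 and 37.2 CPM with decitabine, against 118, 68.9 and 75.1 CPM in controls. The groups again did not overlap, at log2 -1.20 (SE 0.242, adjusted p = 0.00774), or -0.93 without control replicate 1.

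Slc16a3, a plasma membrane exporter of lactate (mm10 chromosome 11, 120948480 to 120960868, plus strand), was 25.5, 22.3 and 26.9 CPM in decitabine-treated B16F10 libraries, against 48.8, 46.1 and 48.1 CPM in controls. It fell by 0.93 on the log2 scale (SE 0.071, adjusted p = 5.7e-09). In 4T1 it was 2.15, 1.80 and 2.02 CPM with decitabine, against 0.235, 0.325 and 0.267 CPM in controls, from 89, 97 and 130 counts against 12, 18 and 14 counts. It rose 7.38-fold there (log2 2.88, SE 0.209, adjusted p = 3.62e-07), and no treated library overlapped a control. Even after this rise its mean of 1.99 CPM in decitabine-treated 4T1 cells was far below the 24.9 CPM of decitabine-treated B16F10 cells.

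**Figure D2:**
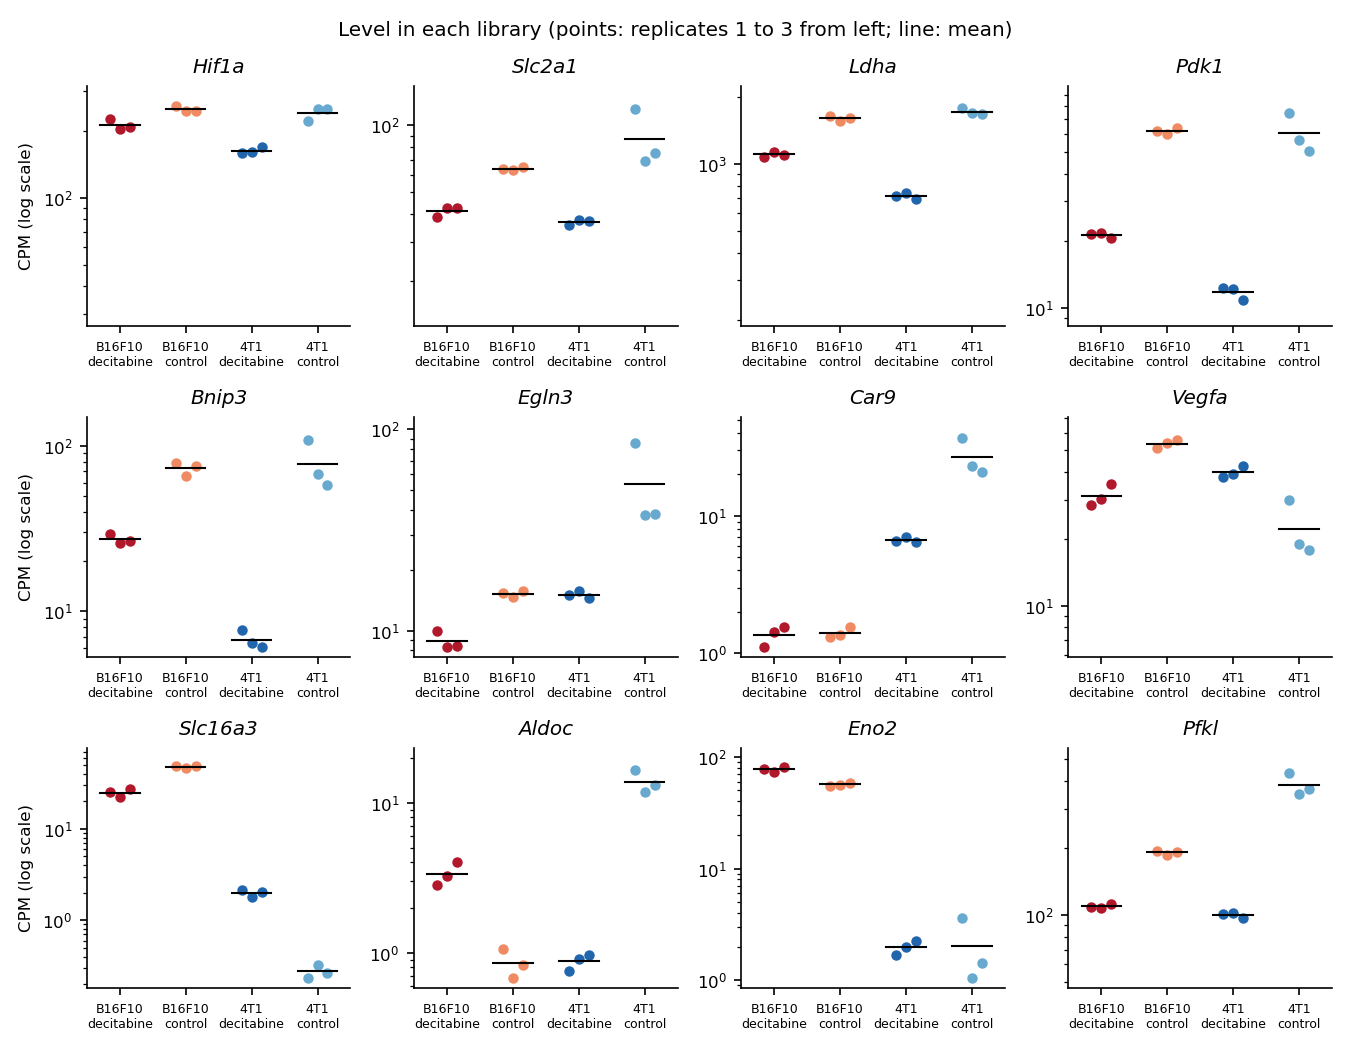
CPM in each library on log axes for 12 of the genes, with decitabine to the left of control within each line and a line at each group's mean. Pdk1, Bnip3 and Ldha are lower with decitabine in both lines, while Slc16a3, Aldoc and Vegfa change direction between lines; the highest 4T1 control point of Slc2a1, Egln3, Car9 and Eno2 is replicate 1.

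The 16 enzymes of the pathway fell nearly as a block. In B16F10 14 fell, and Aldoc and Eno2 rose, where 19.8% of all genes tested fell and 21.4% rose. In 4T1 15 fell and Eno2 did not pass, where 36.1% of genes fell and 75.3% were called in either direction. Their median log2 fold change was -0.42 in B16F10 and -0.80 in 4T1. Summed over the 16, their level was 15000, 16400 and 16400 CPM in decitabine-treated and 22100, 21400 and 22100 CPM in control B16F10 libraries. In 4T1 the sum was 6850, 7010 and 6560 CPM with decitabine and 13700, 13300 and 13400 CPM in controls. As a share of all counts, without scaling, the enzymes took 1.69% ± 0.0677 in decitabine-treated and 2.36% ± 0.0259 in control B16F10 cells, and 0.583% ± 0.0247 in decitabine-treated and 1.37% ± 0.0408 in control 4T1 cells (SD, n = 3 each). Treated and control libraries did not overlap in either line on either measure. The unscaled share also moves with what a few genes take: the 10 most counted genes held 22.4% to 23.9% of counts in decitabine-treated and 5.42% to 5.8% in control 4T1 libraries, and 9.22% to 11.1% in decitabine-treated and 8.34% to 9.67% in control B16F10 libraries.

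The first steps trap glucose in the cell and commit it to the pathway. Hk1 and Hk2, the hexokinases, averaged 160 ± 10.3 and 65.3 ± 2.35 CPM in decitabine-treated B16F10 cells, against 187 ± 8.76 and 93.5 ± 2.35 CPM in controls (SD, n = 3 each). In 4T1 they averaged 149 ± 7.88 and 51.2 ± 3.14 CPM with decitabine, against 187 ± 2.84 and 81.2 ± 8.83 CPM in controls (SD, n = 3 each). Hk2, the isozyme most often raised in tumours, had log2 fold changes of -0.51 in B16F10 (adjusted p = 1.07e-06) and -0.61 in 4T1 (adjusted p = 0.000112). Hk1, the widely expressed isozyme, changed by -0.22 and -0.27 (adjusted p = 0.00715 and 0.000324). Levels per kb were divided by the length of all annotated exons of a gene joined, not of 1 transcript. By this measure Hk1 made up 63.2% ± 2.15 of hexokinase level in decitabine-treated and 58.3% ± 0.521 in control B16F10 cells. In 4T1 cells Hk1 made up 67.1% ± 0.486 with decitabine and 61.7% ± 2.64 in controls (SD, n = 3 each). Its treated and control ranges did not overlap in either line. Gpi1, glucose phosphate isomerase, had a log2 fold change of -0.24 in B16F10 and -0.50 in 4T1.

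Phosphofructokinase, the committed step, is encoded by a liver, a platelet and a muscle gene, and the liver gene fell most. Pfkl had 109, 108 and 112 CPM in decitabine-treated B16F10 libraries, against 194, 187 and 192 CPM in controls. Its 4T1 levels were 101, 102 and 96.8 CPM with decitabine, against 435, 350 and 367 CPM in controls. These are log2 fold changes of -0.79 (SE 0.0514, adjusted p = 6.5e-10) and -1.89 (SE 0.0816, adjusted p = 5.25e-08). Pfkp and Pfkm fell less, by log2 values between -0.45 and -0.39 in the 2 lines. The platelet gene Pfkp passed in 4T1 at an adjusted p of 0.018, and did not pass there without decitabine replicate 3 (adjusted p = 0.067). Pfkl took 37.9% ± 0.319 of phosphofructokinase CPM per kb in decitabine-treated and 44.1% ± 0.261 in control B16F10 cells, and 62.2% ± 0.682 in decitabine-treated and 82.2% ± 0.546 in control 4T1 cells (SD, n = 3 each). Pfkm, the muscle gene, was 50.4% ± 0.33 of the family in decitabine-treated B16F10 cells, against 45.3% ± 1.03 in controls, although its own level fell (SD, n = 3 each). These shares were not tested. They depend on the exon lengths used, 13401 bases for Pfkp, 6675 for Pfkl and 3340 for Pfkm.

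**Figure D3:**
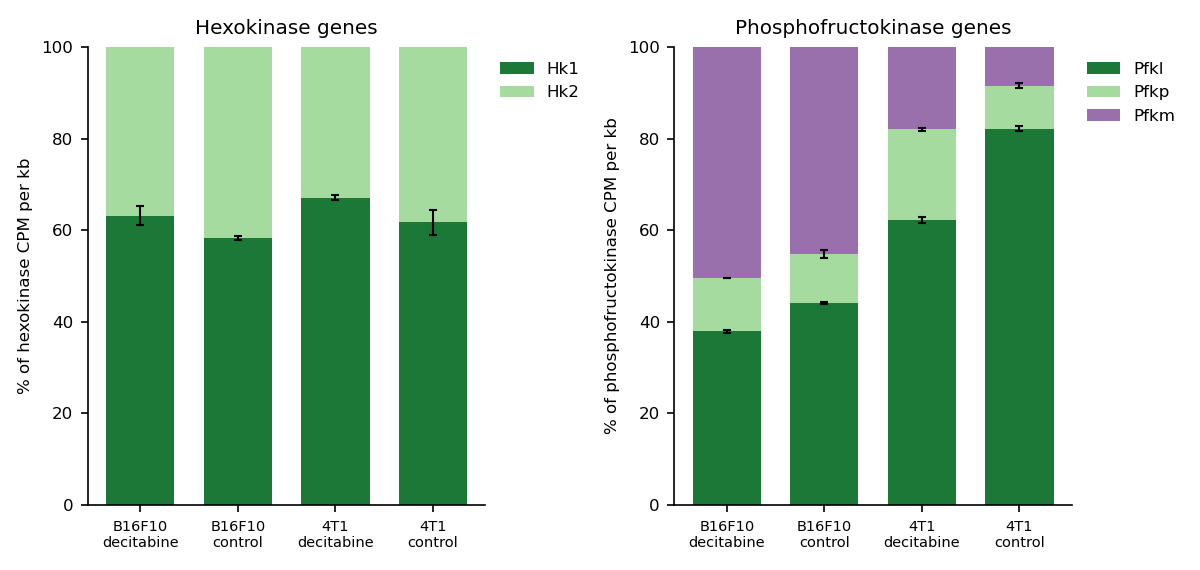
Stacked bars of each gene's mean share of its family's CPM per kb, for hexokinases and phosphofructokinases, with decitabine left of control in each line; error bars at the top of a segment are the SD of that gene's share over 3 libraries. Pfkl takes 62.2% in decitabine-treated and 82.2% in control 4T1 cells, and Hk1 takes a larger share with decitabine in both lines.

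Aldolase splits the sugar, and its abundant and its rare gene behaved differently. Aldoa had 1160, 1220 and 1280 CPM in decitabine-treated B16F10 libraries and 1600, 1620 and 1710 CPM in controls, and 436, 448 and 417 CPM in decitabine-treated 4T1 libraries and 1180, 1020 and 1070 CPM in controls. It fell in both (log2 fold changes -0.43 and -1.28, adjusted p = 2.49e-06 and 1.86e-08). Aldoc, the aldolase known from brain (mm10 chromosome 11, 78322968 to 78327781, plus strand), was 2.83, 3.27 and 4.02 CPM in decitabine-treated B16F10 libraries, against 1.06, 0.678 and 0.831 CPM in controls. In 4T1 it was 0.750, 0.908 and 0.962 CPM with decitabine, against 16.5, 11.9 and 13.1 CPM in controls. It rose 3.94-fold in B16F10 (adjusted p = 1.72e-06) and was 15.1-fold lower in 4T1 (adjusted p = 7.27e-09), the largest fall of any of the 36 genes. Since Aldoa dominates, Aldoc made up 0.245% ± 0.0324 of aldolase CPM per kb in decitabine-treated and 0.0464% ± 0.011 in control B16F10 cells, and 0.180% ± 0.0262 in decitabine-treated and 1.11% ± 0.103 in control 4T1 cells (SD, n = 3 each).

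The steps from triose to pyruvate all fell in both lines, apart from Eno2. Tpi1, triosephosphate isomerase, had 1010, 1080 and 1050 CPM in decitabine-treated B16F10 libraries, against 1640, 1580 and 1620 CPM in controls. Decitabine-treated 4T1 libraries held 240, 251 and 232 CPM, against 628, 588 and 585 CPM in controls (log2 fold changes -0.63 in B16F10 and -1.27 in 4T1, adjusted p = 1.07e-08 and 3.25e-09). Gapdh, which oxidises the triose and is often used as a loading control, had 5810, 6690 and 6780 CPM in decitabine-treated and 9160, 8820 and 9180 CPM in control B16F10 libraries. In 4T1 Gapdh had 1170, 1220 and 1150 CPM with decitabine and 1950, 2090 and 2040 CPM in controls. It was thus 1.40-fold lower in B16F10 (adjusted p = 1.19e-06) and 1.66-fold lower in 4T1 (adjusted p = 6.94e-08).

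Pgk1, the first enzyme of the pathway that yields ATP, had 782, 721 and 702 CPM in decitabine-treated B16F10 libraries, against 1140, 1080 and 1150 CPM in controls. In 4T1 it had 566, 560 and 532 CPM with decitabine, against 1180, 1180 and 1070 CPM in controls. It fell without overlap, with log2 fold changes of -0.61 in B16F10 and -1.0 in 4T1 (adjusted p = 4.96e-08 and 2.75e-08). Pgam1, phosphoglycerate mutase, changed by -0.33 and -1.10, and Eno1, the common enolase, by -0.35 and -0.77. Pkm, pyruvate kinase, averaged 1880 ± 110 CPM in decitabine-treated and 2420 ± 72.3 CPM in control B16F10 cells, and 1700 ± 62.4 CPM in decitabine-treated and 3140 ± 94.4 CPM in control 4T1 cells (SD, n = 3 each). Its log2 fold changes were -0.36 and -0.84 (adjusted p = 1.84e-05 and 2.96e-08). Ldha, which reduces pyruvate to lactate, had 1080, 1130 and 1100 CPM in decitabine-treated B16F10 libraries, against 1640, 1560 and 1610 CPM in controls. Its 4T1 levels were 716, 739 and 694 CPM with decitabine, against 1780, 1700 and 1680 CPM in controls. The log2 fold changes were -0.54 (SE 0.049, adjusted p = 6.73e-08) and -1.21 (SE 0.0451, adjusted p = 2.19e-09), and in neither line did a treated library reach a control.

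Several of these enzymes have processed copies in the genome, and the sources used here do not say how shared reads were counted. The share of 31-base words that also occurs in other genes was 54.7% for Pgk1, 37.1% for Pgam1, 34.7% for Pkm, 28.5% for Eno1 and 28.1% for Gapdh. The nearest copies of Gapdh, Pgk1 and Pgam1 were at 0 counts in all 12 libraries. The near-identical copy of Eno1, Eno1b, was listed at 434 CPM in decitabine-treated and 760 CPM in control 4T1 cells, 51.5% and 51.2% of the Eno1 level, and at 0.223 and 0.272 CPM in B16F10, so the level of Eno1 in 4T1 is uncertain. That of Eno1b moved with it.

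Eno2, the enolase known from neurons, was the enzyme that fell in neither line. It had 78.1, 73.7 and 80.5 CPM in decitabine-treated B16F10 libraries, against 54.9, 56.5 and 58.3 CPM in controls. It rose 1.37-fold there (adjusted p = 6.54e-06), though it did not pass in a fit of all 12 libraries together (adjusted p = 0.149). Decitabine-treated 4T1 libraries held 1.69, 1.98 and 2.25 CPM, against 3.62, 1.05 and 1.41 CPM in controls. The 4T1 controls lay on both sides of the treated libraries (log2 fold change 0.03, SE 0.469, adjusted p = 0.959), and without control replicate 1 Eno2 rose in 4T1 as well, by log2 0.74 (SE 0.193, adjusted p = 0.00282). As a share of enolase CPM per kb, Eno2 was 5.17% ± 0.36 in decitabine-treated and 3.03% ± 0.02 in control B16F10 cells (SD, n = 3 each).

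The 3 regulators of flux did not move as one. Pdk1, which phosphorylates pyruvate dehydrogenase and so keeps pyruvate out of mitochondria (mm10 chromosome 2, 71873224 to 71903858, plus strand), had 21.5, 21.6 and 20.5 CPM in decitabine-treated B16F10 libraries, against 61.8, 60.4 and 64.0 CPM in controls. In 4T1 Pdk1 had 12.2, 12.1 and 10.8 CPM with decitabine, against 74.8, 56.4 and 50.7 CPM in controls. It was 2.92-fold lower in B16F10 (SE of the log2 value 0.0606, adjusted p = 6.24e-13), the largest fall there, and 5.02-fold lower in 4T1 (log2 -2.33, SE 0.162, adjusted p = 1.24e-05), or log2 -2.16 without control replicate 1. Pfkfb3 and Pfkfb4 make and remove the allosteric activator of phosphofructokinase. Pfkfb3 had 30.8, 27.6 and 29.4 CPM in decitabine-treated and 23.5, 22.8 and 22.4 CPM in control B16F10 libraries, and 20.5, 21.3 and 18.3 CPM in decitabine-treated and 19.2, 13.6 and 14.5 CPM in control 4T1 libraries. It rose in B16F10 (log2 0.36, adjusted p = 0.000272) and in 4T1 (log2 0.39, adjusted p = 0.0234), with 1 control overlapping in 4T1. Without control replicate 1, the control that overlapped, the rise in 4T1 was log2 0.55 (adjusted p = 8.76e-06). The call was lost without either of control replicates 2 and 3 or of decitabine replicates 1 and 2, and with scaling by library size only, where the log2 value was 0.09.

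Pfkfb4 was 4.10 ± 0.62 CPM in decitabine-treated and 4.07 ± 0.559 CPM in control B16F10 cells (SD, n = 3 each), with no difference passing (adjusted p = 0.955). Its 4T1 levels were 6.68, 6.12 and 5.60 CPM with decitabine, against 5.25, 4.57 and 5.63 CPM in controls, a log2 fold change of 0.30 (adjusted p = 0.0307) with overlapping groups. This call was lost without control replicate 2 or without decitabine replicate 1 or 2 (adjusted p from 0.074 to 0.134), and the log2 value was 0.00 with scaling by library size only.

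Among the genes of oxygen sensing, 4 of 5 fell in B16F10 and all 5 in 4T1, beside 19.8% and 36.1% of all genes tested. Hif1a RNA had 226, 204 and 208 CPM in decitabine-treated B16F10 libraries, against 258, 244 and 245 CPM in controls. Decitabine-treated 4T1 libraries held 159, 161 and 168 CPM, against 222, 249 and 249 CPM in controls. The groups did not overlap in either line, and the falls were small, with log2 fold changes of -0.22 (SE 0.0569, adjusted p = 0.00363) and -0.51 (SE 0.0491, adjusted p = 3.41e-06). The prolyl hydroxylases Egln1 and Egln3 act on the Hif1a protein, and their own genes are known targets of the factor. Egln1 had 38.6, 31 and 30.7 CPM in decitabine-treated B16F10 libraries, against 65.4, 61.8 and 66.4 CPM in controls (log2 -0.94, adjusted p = 5.67e-08). In 4T1 it had 61.2, 61.3 and 62.7 CPM with decitabine, against 145, 100 and 103 CPM in controls (log2 -0.86, adjusted p = 0.00341, or -0.68 without control replicate 1). The treated libraries were lower than every control in both lines.

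Egln3 had 10.0, 8.31 and 8.40 CPM in decitabine-treated B16F10 libraries, against 15.5, 14.7 and 15.7 CPM in controls, a log2 fold change of -0.78 (adjusted p = 5.38e-06) that did not pass in a fit of all 12 libraries (adjusted p = 0.0882). Its 4T1 levels were 15.1, 15.7 and 14.6 CPM with decitabine, against 85.5, 37.5 and 37.9 CPM in controls. Control replicate 1 was more than 2-fold above the other controls, and the log2 fold change was -1.78 (SE 0.425, adjusted p = 0.0172) with it and -1.28 (SE 0.0558, adjusted p = 2.65e-11) without it. The Egln3 call in 4T1 was lost without any 1 of the decitabine libraries (adjusted p from 0.0571 to 0.0622), with that control still in.

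Kdm3a, a histone demethylase induced by hypoxia, had 125, 122 and 117 CPM in decitabine-treated B16F10 libraries, against 119, 115 and 119 CPM in controls, and did not pass (log2 0.05, adjusted p = 0.455). Decitabine-treated 4T1 libraries held 33.1, 34.3 and 32.3 CPM, against 97.7, 60.0 and 61.4 CPM in controls. It fell there, with a log2 fold change of -1.09 (adjusted p = 0.00772), or -0.83 without control replicate 1. Ankrd37, a transcript used as a marker of hypoxia, had 0.915, 1.13 and 0.919 CPM in decitabine-treated and 1.99, 2.32 and 2.21 CPM in control B16F10 libraries (log2 -1.13, adjusted p = 0.000773). In 4T1 it had 0.677, 0.778 and 0.884 CPM with decitabine, against 5.43, 1.41 and 1.64 CPM in controls, and its log2 fold change was -1.78 (SE 0.639, adjusted p = 0.0464), or -0.91 (adjusted p = 0.000903) without control replicate 1. The 4T1 call was lost without any 1 of the decitabine libraries (adjusted p from 0.105 to 0.126). Ankrd37 overlaps Lrp2bp, which was 0.764 CPM in decitabine-treated and 0.136 CPM in control B16F10 cells, so reads of the pair cannot be told apart with certainty.

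The mitochondrial genes fell in both lines, as did 12.3% of all genes tested in both, and Bnip3 fell most. Bnip3, a receptor on the outer membrane that marks mitochondria for mitophagy (mm10 chromosome 7, 138890836 to 138909519, minus strand), had 29.4, 25.8 and 26.5 CPM in decitabine-treated B16F10 libraries, against 79.2, 66.1 and 75.1 CPM in controls. Its 4T1 levels were 7.64, 6.36 and 6.05 CPM with decitabine, against 108, 67.2 and 57.9 CPM in controls. It was 2.69-fold lower in B16F10 (log2 -1.43, SE 0.0746, adjusted p = 3.71e-11) and 11.3-fold lower in 4T1 (log2 -3.5, SE 0.329, adjusted p = 0.000431), or log2 -3.20 without control replicate 1. Of its 31-base words 57.0% also occur in other genes, 4 of them pseudogenes, so its level is uncertain, as are those of Pgk1 and Eno1. Its paralogue Bnip3l, also a mitophagy receptor, had 93.6, 91.9 and 88.1 CPM in decitabine-treated and 123, 113 and 120 CPM in control B16F10 libraries, and 55.2, 56.9 and 53.3 CPM in decitabine-treated and 163, 139 and 129 CPM in control 4T1 libraries. Every treated library was below every control, with log2 fold changes of -0.37 and -1.33 (adjusted p = 2.21e-05 and 9.09e-07). Higd1a, an inner membrane protein, had 27.5, 31.3 and 28.7 CPM in decitabine-treated and 50.6, 36.9 and 48.1 CPM in control B16F10 libraries, and 23.1, 23.7 and 24.7 CPM in decitabine-treated and 37.9, 32.3 and 31.2 CPM in control 4T1 libraries. It fell in both lines without overlap, with log2 fold changes of -0.63 (adjusted p = 0.00129) and -0.45 (adjusted p = 0.000283).

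Of the 4 genes for secreted factors and collagen hydroxylases, 3 fell in B16F10, and in 4T1 2 fell and Vegfa rose. Of all genes tested 19.8% fell in B16F10, and 36.1% fell and 39.2% rose in 4T1. The 4T1 counts lie near these shares. Vegfa, the main growth factor for blood vessels, had 28.4, 30.1 and 35.2 CPM in decitabine-treated B16F10 libraries, against 51.2, 54.0 and 55.5 CPM in controls. Decitabine-treated 4T1 libraries held 37.9, 39.2 and 42.4 CPM, against 29.9, 18.9 and 17.8 CPM in controls. It fell in B16F10 (log2 -0.77, SE 0.0749, adjusted p = 1.91e-07) and rose in 4T1 (log2 0.90, SE 0.214, adjusted p = 0.0107), with no overlap in either line. The rise in 4T1 was log2 1.16 without control replicate 1, and it did not pass with scaling by library size only (log2 0.59, adjusted p = 0.0504). Adm, the vasodilator peptide adrenomedullin, was low in both lines. It had 0.817, 0.977 and 0.772 CPM in decitabine-treated and 1.16, 0.565 and 0.800 CPM in control B16F10 libraries, which overlapped (adjusted p = 0.96), and 1.5, 1.37 and 1.23 CPM in decitabine-treated and 4.19, 2.44 and 2.97 CPM in control 4T1 libraries (log2 -1.19, adjusted p = 0.000399, or -0.96 without control replicate 1).

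P4ha1 and P4ha2 encode the catalytic subunits that hydroxylate prolines of collagen. P4ha1 had 69.4, 68.1 and 69.4 CPM in decitabine-treated B16F10 libraries, against 86.5, 79.4 and 84.9 CPM in controls, a log2 fold change of -0.27 (adjusted p = 0.000995) that did not pass in a fit of all 12 libraries (adjusted p = 0.151). In 4T1 P4ha1 had 46.6, 45.0 and 47.9 CPM with decitabine, against 137, 91.6 and 87.1 CPM in controls (log2 -1.13, adjusted p = 0.00422, or -0.90 without control replicate 1). P4ha2 fell in B16F10, with 23.4, 23.2 and 23.5 CPM in decitabine-treated libraries against 33.4, 30.3 and 31 CPM in controls (log2 -0.43, adjusted p = 2.65e-05). In 4T1 P4ha2 had 10.7, 10.7 and 10.6 CPM with decitabine, against 17.5, 9.71 and 11.8 CPM in controls, and it did not pass (adjusted p = 0.353).

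Of the remaining 3 targets, Ndrg1 and Mxi1 fell in B16F10 and Car9 in 4T1, beside 19.8% and 36.1% of all genes tested. The difference between lines passed by edgeR for Car9 and not for Ndrg1 (adjusted p = 0.229) or Mxi1 (adjusted p = 0.293). Ndrg1, a gene of stress and differentiation, had 121, 126 and 136 CPM in decitabine-treated B16F10 libraries, against 247, 205 and 228 CPM in controls (log2 -0.82, adjusted p = 4.47e-08). In 4T1 it had 93.0, 90.4 and 75.7 CPM with decitabine, against 154, 83.6 and 82.1 CPM in controls, and these overlapped (adjusted p = 0.502). Mxi1, which opposes Myc by binding Max, had 34.7, 34.2 and 34.1 CPM in decitabine-treated and 53.6, 49.4 and 52.7 CPM in control B16F10 libraries (log2 -0.59, adjusted p = 2.54e-07). In 4T1 Mxi1 had 33.4, 33.8 and 31.6 CPM with decitabine, against 54.1, 33.3 and 30.9 CPM in controls (adjusted p = 0.467). Without control replicate 1 the log2 values in 4T1 were 0.10 for Ndrg1, 0.07 for Mxi1 and 0.03 for P4ha2, all still short of the threshold. Car9, a carbonic anhydrase on the cell surface that acidifies the surroundings, had 1.11, 1.42 and 1.54 CPM in decitabine-treated and 1.31, 1.36 and 1.55 CPM in control B16F10 libraries (log2 -0.05, adjusted p = 0.908). In 4T1 Car9 had 6.53, 7.02 and 6.49 CPM with decitabine, against 36.6, 23.2 and 20.7 CPM in controls, 3.88-fold lower (log2 -1.96, SE 0.245, adjusted p = 0.000521), or log2 -1.68 without control replicate 1.

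Set beside each other, the glycolytic members and the other hypoxia genes fell in similar proportion. In B16F10 17 of 21 glycolytic members and 12 of 15 other hypoxia genes fell, with median log2 fold changes of -0.43 and -0.59. In 4T1 the numbers were 17 of 21 and 11 of 15, with medians of -0.77 and -1.09. Of all genes tested 19.8% fell in B16F10 and 36.1% in 4T1. The wider 4T1 gap rests on control replicate 1: without it the medians were -0.81 for glycolytic members and -0.83 for the other hypoxia genes, beside 0.04 over all genes, of which 36.6% then fell and 40.7% rose. Taken library by library against the line's control mean, the glycolytic median was -0.47, -0.43 and -0.40 in decitabine-treated and 0.02, -0.02 and 0.01 in control B16F10 libraries. For the other hypoxia genes it was -0.58, -0.53 and -0.60 in decitabine-treated and 0.05, -0.06 and 0.02 in control B16F10 libraries. The glycolytic median in 4T1 was -0.81, -0.77 and -0.88 in decitabine-treated and 0.12, -0.08 and -0.06 in control libraries. For the other hypoxia genes it was -1.09, -1.09 and -1.14 in decitabine-treated and 0.43, -0.23 and -0.27 in control 4T1 libraries. In 4T1 the glycolytic members rose in 3 cases and the other hypoxia genes in 1, where 39.2% of all genes tested rose.

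**Figure D4:**
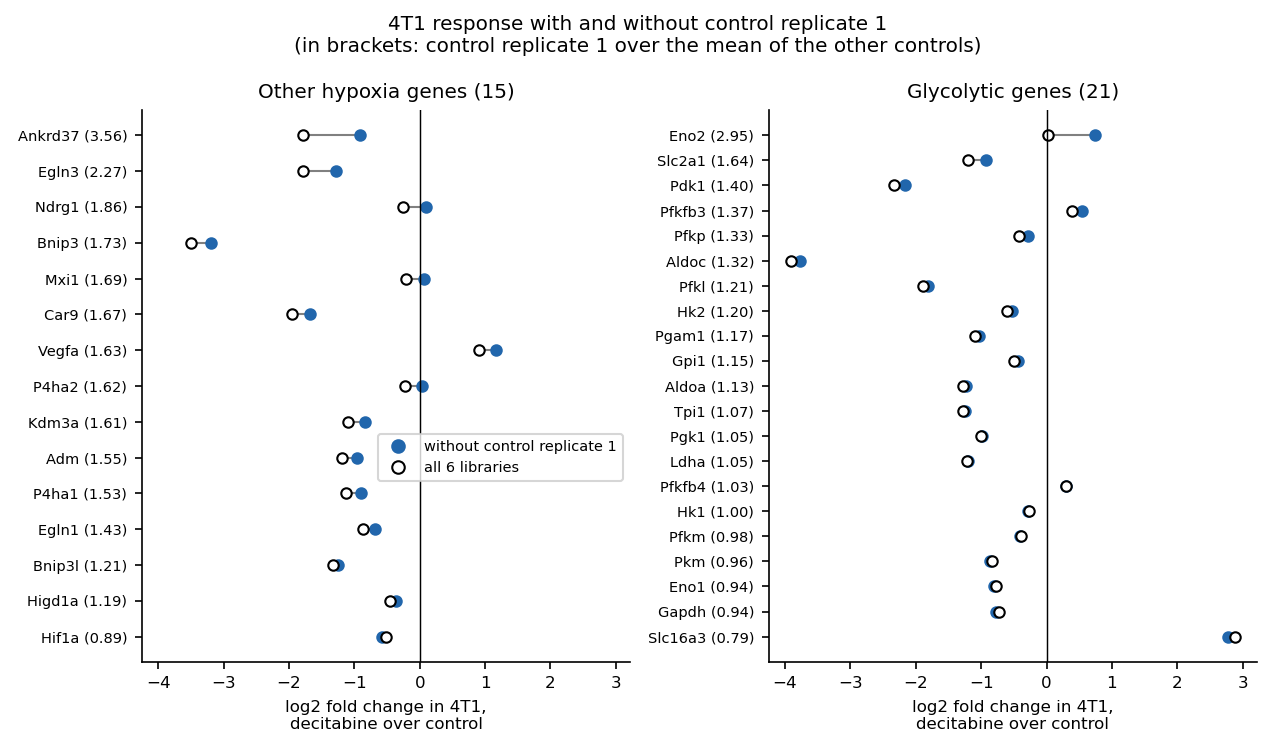
Log2 fold change of each gene in 4T1, decitabine over control, with all 6 libraries (open) and without control replicate 1 (filled), other hypoxia genes on the left and glycolytic members on the right; brackets give control replicate 1 over the mean of the other controls. Ankrd37 (3.56) and Egln3 (2.27) shift most among the other hypoxia genes, and Eno2 (2.95) shifts from 0.03 to 0.74.

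The difference of the responses, B16F10 minus 4T1, was tested in 1 fit of the 12 libraries. It was positive for 19 of the 36 genes (28.9% of 17127 genes were) and negative for 2 (20.9% of genes), where 49.8% of genes differed in either direction. A positive value here means, for most of these genes, a smaller fall in B16F10. Among the 16 enzymes 11 were positive, and the estimates of the other 5 were above 0 too. Aldoc differed most, by log2 5.94 (SE 0.275, adjusted p = 1.09e-11), and Slc16a3 most in the other direction, by -3.77 (SE 0.188, adjusted p = 3.05e-11). Next by adjusted p came Pfkl, the liver phosphofructokinase, at 1.15 (adjusted p = 8e-09), Ldha at 0.73 (adjusted p = 6.57e-08), Aldoa at 0.90 (adjusted p = 7.33e-08) and Bnip3l at 1.01 (adjusted p = 1.36e-07). Bnip3 differed by 2.12 (SE 0.322, adjusted p = 0.000502), Car9 by 1.95 (adjusted p = 5.81e-05) and Vegfa by -1.62 (adjusted p = 0.000205). Hk1, Hk2, Pfkp, Pfkm and Eno2 were the enzymes for which a difference did not pass, with log2 values from 0.01 to 0.45. Egln1, with -0.04 (SE 0.19, adjusted p = 0.926), also showed no difference that passed. Without 4T1 control replicate 1 the count of negative differences was 5 in place of 2, as P4ha2 (-0.43), Ndrg1 (-0.88) and Mxi1 (-0.63) then passed. The count of positive differences was 21 in place of 19, as Slc2a1 (0.34, adjusted p = 0.0014) and Egln3 (0.54, adjusted p = 0.000598) passed; with all libraries they were at 0.62 (adjusted p = 0.0603) and 1.04 (adjusted p = 0.0809).

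Between controls, the lines themselves differed in 27 of the 36 genes, beside 77.9% of all genes. In B16F10 controls 15 were higher than in 4T1 controls (37.9% of genes) and 12 lower (40% of genes). Slc16a3 averaged 47.7 ± 1.41 CPM in B16F10 and 0.276 ± 0.0456 CPM in 4T1 controls, 171-fold higher in B16F10, and Eno2 averaged 56.6 ± 1.7 CPM and 2.03 ± 1.39 CPM (SD, n = 3 each). Gapdh averaged 9060 ± 205 CPM in B16F10 and 2030 ± 74.7 CPM in 4T1 controls (SD, n = 3 each), a log2 difference of 2.16 (adjusted p = 1e-16). Lower in B16F10 were Car9, 19.0-fold, Aldoc, 16.1-fold, Adm, 3.78-fold, and Egln3, 3.5-fold. These folds include 4T1 control replicate 1, which was 1.67, 1.32, 1.55 and 2.27 times the mean of the other 4T1 controls for these genes. Hif1a RNA did not differ past the threshold (249 ± 7.81 CPM in B16F10 and 240 ± 15.8 CPM in 4T1 controls, SD, n = 3 each, adjusted p = 0.357), nor did Pgk1 (adjusted p = 0.648), Pdk1 (adjusted p = 0.785) or Bnip3 (adjusted p = 0.742). Ldha was near the threshold: it averaged 1600 ± 44.3 CPM in B16F10 and 1720 ± 54.2 CPM in 4T1 controls (SD, n = 3 each) and did not pass by edgeR (log2 -0.10, adjusted p = 0.0567), but was lower in B16F10 by DESeq2 (log2 -0.16, adjusted p = 0.000238) and limma-voom (log2 -0.10, adjusted p = 0.0201). By edgeR, Pdk1 was higher in B16F10 controls without 4T1 control replicate 1 (log2 0.18, adjusted p = 0.0225). So were Mxi1 (log2 0.66, adjusted p = 2.2e-08) and Pfkp (log2 0.20, adjusted p = 0.0116). The calls of Slc2a1, P4ha1 and Hk2 between controls were lost without any 1 of the B16F10 controls.

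Per kb of joined annotated exons, Gapdh led in B16F10 with 1560 ± 130 CPM per kb in decitabine-treated and 2190 ± 49.6 CPM per kb in control cells (SD, n = 3 each). Aldoa and Tpi1 followed. In 4T1 Pkm led with 339 ± 12.5 CPM per kb in decitabine-treated and 628 ± 18.9 CPM per kb in control cells (SD, n = 3 each). In 4T1 controls Pgam1, Ldha, Pgk1 and Gapdh came next, between 528 and 491 CPM per kb, with neighbouring means closer than the larger of their SDs. Gapdh took 40.4% ± 1.38 of the summed enzyme CPM in decitabine-treated and 41.4% ± 0.174 in control B16F10 cells, and 17.4% ± 0.199 in decitabine-treated and 15.1% ± 0.781 in control 4T1 cells (SD, n = 3 each). Hif1a, at 36.1 and 42.3 CPM per kb in decitabine-treated and control B16F10 cells, was the most abundant of the other hypoxia genes in both groups. At the low end stood Adm, Car9, Pfkfb4 and Ankrd37 in decitabine-treated B16F10 cells, Aldoc in B16F10 controls and in decitabine-treated 4T1 cells, and Slc16a3 in 4T1 controls.

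Other genes of the pathway moved in both directions. Over all genes tested 19.8% fell and 21.4% rose in B16F10, and 36.1% fell and 39.2% rose in 4T1. Of 23 other glycolysis genes tested in B16F10 3 fell and 10 rose, and of 25 in 4T1 8 fell and 12 rose. Pgm2, which links glycogen and pentose sugars to glycolysis, fell in both (log2 -0.62 and -1.18). Eno3, the muscle enolase, rose in B16F10 (log2 0.54) and fell in 4T1 (log2 -0.48), and Pfkfb2, a relative of Pfkfb3, rose in 4T1 (log2 1.10). Among 58 further hypoxia targets, 16 of 41 tested fell and 17 rose in B16F10, and 24 of 48 fell and 15 rose in 4T1. In that list Mif, a cytokine, fell in both lines (log2 -0.28 and -0.76), as did the mitochondrial protease Lonp1 (log2 -0.85 and -0.21). Of the regulators of the factor, 5 of 25 fell and 4 rose in B16F10, and 8 of 24 fell and 8 rose in 4T1. Arnt, the partner of Hif1a, was at 67.6 ± 0.78 CPM in decitabine-treated and 67.1 ± 2.34 CPM in control B16F10 cells (adjusted p = 0.87), and rose in 4T1 to 78.3 ± 3.74 CPM with decitabine, against 57.1 ± 3.41 CPM in controls (SD, n = 3 each). Cited2, a feedback inhibitor of the factor, rose in B16F10 (log2 0.66) and fell in 4T1 (log2 -0.20).

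The routes next to glycolysis were mixed too. Beside them, 19.8% of all genes tested fell and 21.4% rose in B16F10, and 36.1% fell and 39.2% rose in 4T1. In the pentose phosphate pathway 2 of 9 genes fell and 2 rose in B16F10, and 6 of 10 fell and 3 rose in 4T1. G6pdx, its entry enzyme, was at log2 -0.07 in B16F10 (adjusted p = 0.401) and fell in 4T1 (log2 -0.97), and Pgd, the next dehydrogenase, rose in B16F10 (log2 0.58) and fell in 4T1 (log2 -0.76). Of 30 genes of pyruvate dehydrogenase and the citrate cycle, 9 fell and 6 rose in B16F10, and 14 fell and 8 rose in 4T1. Pcx, pyruvate carboxylase, rose in both (log2 0.37 and 1.73), and Fh1, fumarase, fell in both (log2 -0.28 and -0.73). Of 38 nuclear genes of the respiratory chain, 8 fell in B16F10, and 6 fell and 9 rose in 4T1. These lists were not tested as lists, and some of the counts lie near the shares over all genes.

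Markers of other states moved alongside. Of the 26 immediate early and heat shock genes tested in B16F10, kept as a sign of RNA quality and handling, 16 rose and 1 fell, and of 27 in 4T1 20 rose. Over all genes tested 21.4% rose and 19.8% fell in B16F10, and 39.2% rose in 4T1. Their summed level was 3530 to 3660 CPM in decitabine-treated and 2290 to 2470 CPM in control B16F10 libraries, and 6190 to 7250 CPM in decitabine-treated and 3870 to 4670 CPM in control 4T1 libraries. The 10 fibroblast markers summed to 57.7 to 63.1 CPM in decitabine-treated and 46.9 to 52.2 CPM in control B16F10 libraries, and to 21.3 to 24.5 CPM in decitabine-treated and 11.0 to 11.5 CPM in control 4T1 libraries. The 10 blood and immune markers summed to at most 4.64 CPM in B16F10, and to 16 to 16.7 CPM in decitabine-treated and 0.874 to 1.36 CPM in control 4T1 libraries. Most of the 4T1 sum with decitabine was Csf1r, which averaged 13.1 CPM, against 0.998 CPM in controls. All 4 of these markers tested in 4T1 rose, while Adgre1 and Nkg7 were at 0 counts in all libraries. The 8 endothelial markers summed to 230 to 269 CPM in decitabine-treated and 174 to 178 CPM in control B16F10 libraries, and to 76.6 to 105 CPM in decitabine-treated and 71.6 to 79.3 CPM in control 4T1 libraries. Their part in the fall of the 36 genes was not tested.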

How the data were processed

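RNA from 12 libraries was sequenced. The deposited values are estimated counts per gene and library, and per the submitters' processing notes RSEM, edgeR and the mm10 build were used, without versions or roles; the sources used here give neither filters nor how shared reads were counted. Between 9.54% and 15.5% of all values of a library, zeros included, were not whole, and all were rounded. Per the series' design text libraries ran on either of 2 sequencers, without saying which. Symbols were those of the tables, with 27 restored from identifiers, and 46005 of 46517 identifiers matched GENCODE M21, whose coordinates are used.

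Each line's 6 libraries were fitted with edgeR 4.0.16 (filterByExpr, TMM factors, robust quasi-likelihood) in R 4.3.3, with Benjamini-Hochberg adjustment over all genes tested and a threshold of 0.05. The difference of the responses and the contrast of control cells of the lines came from 1 fit of all 12 libraries, which makes 4 comparisons. Alternatives were DESeq2 1.42.0, limma-voom (limma 3.58.1), library size or RLE scaling, no filter, a replicate block, 1 fit of all 12 libraries, leaving out each library, and leaving out members that share over 50% of their 31-base words. The statistics were tested on data simulated from control means with a small set of genes changed. Those data held no broad shift like that in 4T1, so they cannot check the scaling there. The members and lists were chosen with earlier results of these data known. Every member is accounted for; values in every library are given for 9 fixed members, the 3 with the smallest adjusted p per role and line, the 6 with the smallest for the difference, those called in opposite directions and those that rose, and from the other lists at most 2 genes per direction and line are named.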

Additional observations from a re-analysis of the deposited data

Results flagged for a closer look

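The response to decitabine differed between lines, by a test of the difference itself (edgeR's quasi-likelihood test, B16F10 minus 4T1, log2), for 21 of the 36 genes, where 49.8% of the 17127 genes tested did. Among the glycolytic members the differences were -3.77 for Slc16a3, 0.30 for Gpi1, 1.15 for Pfkl, 0.90 for Aldoa, 5.94 for Aldoc, 0.69 for Tpi1, 0.28 for Gapdh and 0.44 for Pgk1. They were 0.81 for Pgam1, 0.47 for Eno1, 0.52 for Pkm, 0.73 for Ldha and 0.83 for Pdk1. Among the other hypoxia genes they were 0.33 for Hif1a, 1.18 for Kdm3a, 2.12 for Bnip3, 1.01 for Bnip3l, -1.62 for Vegfa, 1.25 for Adm, 0.90 for P4ha1 and 1.95 for Car9. The dose was 0.1 µM in B16F10 and 1 µM in 4T1, so line and dose cannot be told apart.

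Genes outside the 36 that also differed were Dnmt1 (-0.33), Mlxip (0.37), Pfkfb2 (-0.87), Pgm2 (0.60), Eno3 (1.07), Mif (0.53), Lonp1 (-0.60), Pcx (-1.31) and Fh1 (0.49). Further differences were 1.38 for Pgd, 0.95 for G6pdx, -0.45 for Arnt and 0.91 for Cited2. The Dnmt1 difference was -0.11 and did not pass with scaling by library size only (adjusted p = 0.229). The sugar-regulated genes Txnip and Arrdc4 differed by -4.96 and -3.68, and the glucose transporter Slc2a3 by -2.81.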

How the results depend on the processing

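No call changed direction under any alternative run. DESeq2, limma-voom and RLE scaling changed no call on a named gene within either line. The members that rose in 4T1 numbered 1 with library size only, 2 without a filter and 2 to 5 leaving out each library, against 4. Leaving out each library, those that fell numbered 25 to 29 in 4T1 and 29 each time in B16F10. In 1 fit of all 12 libraries 27 fell and 2 rose in B16F10, and 27 fell there without the members that share sequence. Negative differences between lines numbered 2 to 5 leaving out each library, with 5 when 4T1 control replicate 1 was left out. The median of the other hypoxia genes in B16F10 was -0.51 without the members that share sequence. In 4T1 the glycolytic median was -1.06 with library size only, a scaling that moved the median of all genes to -0.27, with 34.0% of calls higher against 52.1%. For the difference it moved that median to 0.28, with 73.6% of calls higher against 58.0%. Leaving out each library, the median of the other hypoxia genes lay between -1.22 and -0.83 in 4T1.

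With the replicate number as a block, 29 members fell and 3 rose in B16F10, 28 fell and 4 rose in 4T1, and 19 differences were positive and 2 negative, as without it. Deviations of same-numbered libraries correlated between -0.09 and 0.02, so the numbers gave no sign of pairing. Genes at 1 CPM or below in a group rest on the fewest counts there. Slc16a3 had 12, 18 and 14 counts in 4T1 controls. Ankrd37 had 28, 42 and 57 in decitabine-treated 4T1 libraries, and Adm 69, 30 and 51 in B16F10 controls.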

Other observations

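Txnip, an arrestin that limits glucose uptake and is raised by sugar phosphates, moved oppositely in the 2 lines. It had 109, 115 and 113 CPM in decitabine-treated B16F10 libraries, against 141, 181 and 138 CPM in controls (log2 -0.44, edgeR adjusted p = 0.00716), and did not pass without decitabine replicate 1 (adjusted p = 0.0942). In 4T1 it had 255, 277 and 260 CPM with decitabine, against 12.0, 13.3 and 9.35 CPM in controls (log2 4.56, adjusted p = 2.37e-08). Its relative Arrdc4 averaged 10.6 ± 1.03 CPM in decitabine-treated and 0.912 ± 0.05 CPM in control 4T1 cells (SD, n = 3 each). Mlxip, a glucose-sensing transcription factor, fell in both lines (log2 -0.39 in B16F10 and -0.71 in 4T1). In the list of Myc, Max and Mondo factors that holds it, 3 of 11 genes fell and 2 rose in B16F10, and 4 of 12 fell and 5 rose in 4T1. The shares over all genes were 19.8% and 21.4% in B16F10, and 36.1% and 39.2% in 4T1.

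Most testis forms of glycolytic enzymes stayed near 0 counts. Pgk2 was at 0 counts in all libraries, and Ldhc had 9 counts in decitabine-treated and 1 in control 4T1 libraries in sum. Pdha2, the testis form of the pyruvate dehydrogenase subunit, had 84 counts in decitabine-treated and 0 in control B16F10 libraries, and 149 in decitabine-treated and 0 in control 4T1 libraries. Against a floor of 3 counts over the control group it was at least 28.4-fold higher in B16F10 and at least 49.4-fold higher in 4T1. Eno4 summed to 309 counts in decitabine-treated and 111 in control 4T1 libraries. Slc2a3, a glucose transporter in the same list, averaged 2.46 ± 0.443 CPM in decitabine-treated and 0.434 ± 0.0696 CPM in control 4T1 cells (SD, n = 3 each).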
